A study of Rattus norvegicus with 48 samples.

Results

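The miRNAs rno-miR-455-3p and rno-miR-455-5p, here miR-455-3p and miR-455-5p, are the mature strands cut from opposite arms of a single hairpin, rno-mir-455, and they were taken by name from the deposited count table as 2 of the 764 mature rat miRNAs it lists. Liver small RNA was sequenced from 48 male Sprague-Dawley rats that received thioacetamide (TAA), a compound that injures the liver, or vehicle alone. TAA was given once daily at 4.5 (low), 15 (middle) or 45 (high) mg/kg, and livers were taken after 3, 7, 14 or 28 days (3-d, 7-d, 14-d, 28-d). Vehicle controls were matched to each time point, which gave 12 treatment conditions and 4 control groups of 3 rats each. The question of the comparison was how the level of each strand, and the balance between the strands, differed between treated and control livers. Rats are named by the running number in the sample labels, and the 3 doses of a time point share the same control rats, so their results are not independent.

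A miRNA hairpin is cut in the nucleus and again in the cytoplasm to a short duplex, from which an Argonaute protein commonly keeps one strand to silence mRNAs while the other is degraded, although some hairpins leave both strands in the cell. miR-455 is best known from cartilage, where it is produced together with collagen transcripts and acts on transcripts of the TGF-β and SMAD pathway, and from the differentiation of brown adipose tissue. The TGF-β pathway drives matrix production by stellate cells in injured liver.

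The sequences below show where the 3p strand lies in its hairpin and the seed by which it selects target mRNAs. They come from RefSeq (GRCr8), and the hairpin lies on the plus strand at chr5:81704834-81704911, with the 3p strand at chr5:81704881-81704902. In the hairpin the capitals mark miR-455-3p, hairpin bases 48 to 69, and in the mature sequence they mark the seed, bases 2 to 8.

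rno-mir-455 hairpin: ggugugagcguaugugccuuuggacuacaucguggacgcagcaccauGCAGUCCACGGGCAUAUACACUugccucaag

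rno-miR-455-3p: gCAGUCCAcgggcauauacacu

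The hairpin lies within the span of Col27a1, a fibrillar collagen gene transcribed in the same direction, 42012 bases from its start. Whether it falls in an exon or an intron was not analysed here. The seed of miR-455-3p was shared by 0 other miRNAs among the 693 mature rat sequences in RefSeq, so these data hold no seed family to compare it with.

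Library totals ranged from 4829217 to 14906217 miRNA reads in 47 libraries and were 293331 in control 3-d replicate 1. A limit of 3 reads corresponded to at most 0.621 RPM (reads per 1000000) in the 47 libraries and to 10.2 RPM in control 3-d replicate 1, for counting error only. This library stood apart in its miR-455 reads as well. It held 351 reads of miR-455-3p, or 1197 RPM (Poisson 95% interval 1075 to 1329), whereas the other 11 control libraries ranged from 53.6 to 162 RPM with a median of 71.0. miR-455-5p in the same library had 18 reads, or 61.4 RPM (36.4 to 97.0), inside the 44.5 to 84.8 RPM of the other controls. The 3p strand was therefore 16.8-fold above the median of the other controls in a library whose 5p strand was not. miR-455-3p was not alone in this, since 34 of the 209 miRNAs with at least 5 expected reads there were more than 4-fold above that median and 15 were more than 4-fold below it. For the log2 ratio of the strands, miR-455 departed from the median of the other controls by 4.33, the fourth largest departure among 57 precursors, for which the median absolute departure was 1.16. The library was left out of all results below unless stated.

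**Figure D1:**
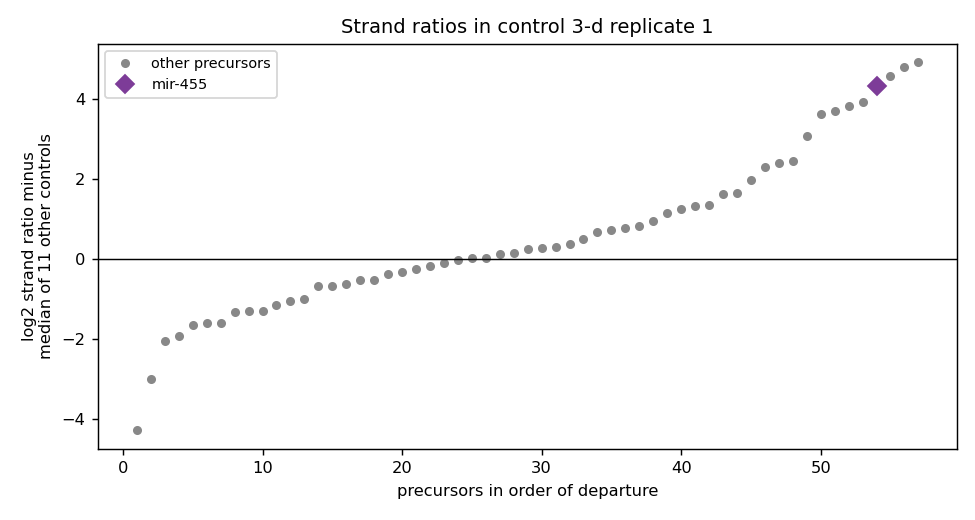
Log2 ratio of the 3p to the 5p strand in control 3-d replicate 1 minus the median of the 11 other control libraries (y axis), for 57 precursors sorted by that difference (x axis). The diamond marks mir-455 at 4.33, near the upper end of a wide spread that reaches 4.93.

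Across the 47 libraries the strands of miR-455 were present at similar levels, which is uncommon in this liver. The mean level was 66.1 RPM for rno-miR-455-3p and 68.4 RPM for rno-miR-455-5p, which ranked 146th among the 664 miRNAs with a read. Of 99 precursors whose strands both passed the filter on low values, 12 had a median strand ratio within 1 log2 unit of equal, and mir-455 was the fourth most even. The median absolute log2 ratio over the 99 was 4.09. Read counts were 211 to 1687 for 3p and 341 to 1103 for 5p.

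The strands differed in how much they varied between livers. Levels given from here on are upper quartile normalized RPM. miR-455-3p ran from 30.2 through a median of 56.7 to 175, with a coefficient of variation of 48.3%, the 44th highest of 301 tested miRNAs. miR-455-5p ran from 43.5 through 67.4 to 110, with a coefficient of variation of 21.1%, rank 230, where the median miRNA had 27.9%. The variable strand of this hairpin was thus 3p, while 5p was among the steadier miRNAs of the liver.

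By group mean, miR-455-3p was lowest in the middle dose group at 7-d (38.8 ± 2.40, SD, n = 3) and highest in controls at 14-d (122 ± 49.0), a 3.15-fold range. In ascending order between them came low 7-d (39.2), middle 14-d (40.3), high 7-d (44.3), low 28-d (51.1), high 14-d (54.0), low 14-d (59.1), low 3-d (59.1), middle 28-d (61.9), control 3-d (62.4), control 7-d (62.8), middle 3-d (77.6), high 3-d (82.9), control 28-d (101) and high 28-d (116). The range of miR-455-5p was narrower, from 51.9 ± 7.97 in low 7-d to 89.5 ± 19.7 in low 3-d, or 1.73-fold. In both orders the ranges of all 15 pairs of neighbouring groups overlapped, so no step between neighbours exceeded the spread between rats. Groups sorted by mean lie close to their neighbours by construction, so this overlap does not show whether groups farther apart differed.

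**Figure D2:**
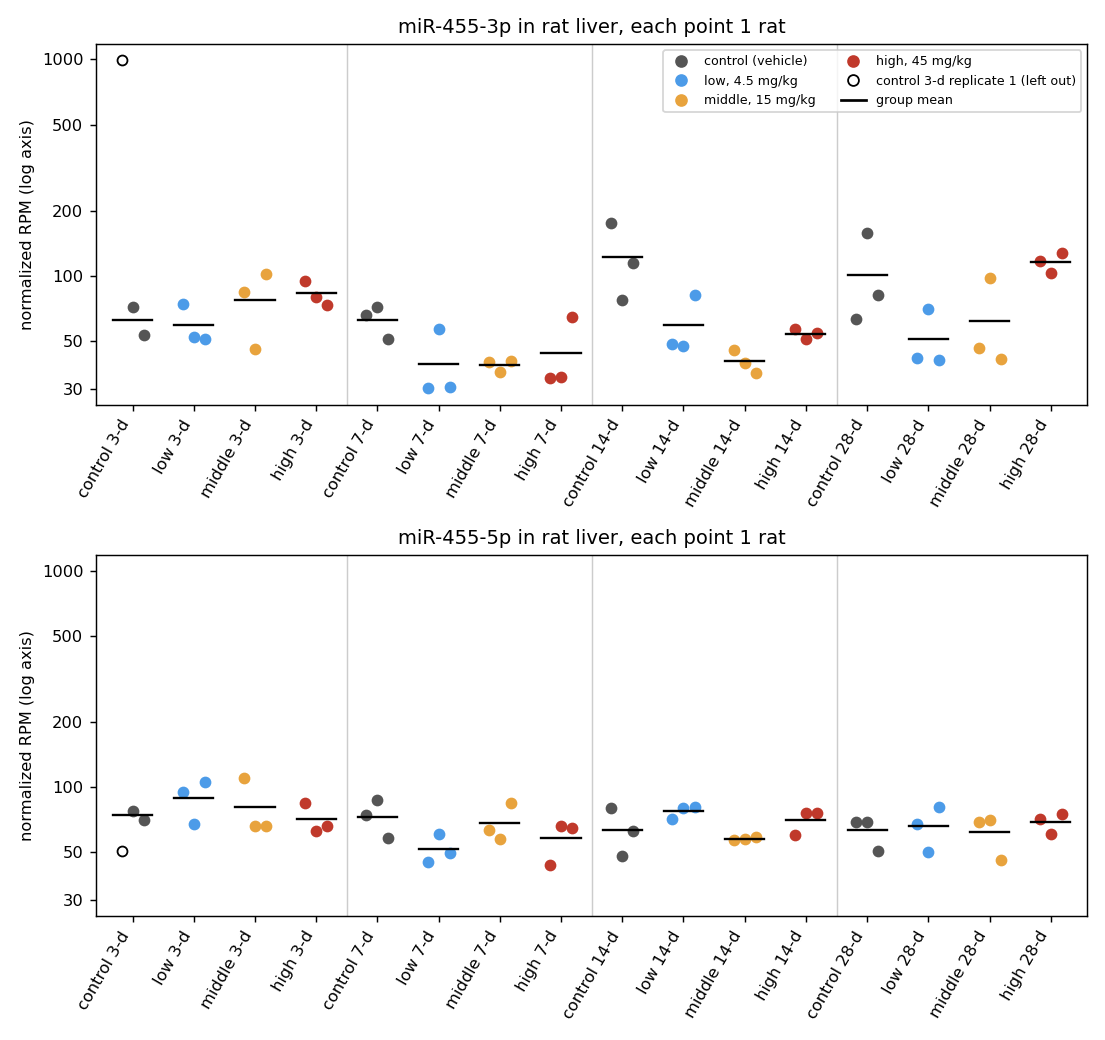
Upper quartile normalized RPM (log y axis) of miR-455-3p (top) and miR-455-5p (bottom) in each of 48 livers, by group (x axis), with lines at group means computed without control 3-d replicate 1, the open circle. Most 3p points of treated livers lie below the controls at 7-d and 14-d, and the 3p points spread from 40.9 to 159 at 28-d, whereas the 5p points stay between 43.5 and 110.

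At 7-d, miR-455-3p measured 65.6, 71.6 and 51.1 in the controls (rats 4, 5 and 6) and 40.2, 36.1 and 40.3 in the middle dose group. All middle dose livers were below all controls, and the log2 fold change was -0.69 (SE 0.14, edgeR adjusted p = 0.0076). The low dose rats had 30.2, 56.7 and 30.6, of which the second lay inside the control range, with a log2 fold change of -0.67 (SE 0.26, adjusted p = 0.065). In the high dose group the levels were 33.8, 34.2 and 64.7, the last again among the controls, and the change of -0.51 (SE 0.29) did not pass, although it was called with TMM (-0.61), DESeq2 size factors (-0.64), no filter (-0.74), the DESeq2 Wald test (-0.64) and pooled controls (-1.02). The 95% interval of that change ran from -1.19 to 0.17. Leaving out control rat 4 or 5 or low dose rat 46 or 48 ended the low dose call, with log2 fold changes of -0.64, -0.57, -0.52 and -0.53 in that order. The middle dose call was lost with library size alone (-0.58), with 5 RPM required in every library (-0.54) and in a single fit of all libraries, and the low dose call in that single fit. Leaving out high dose rat 27 made the high dose change pass at -0.88.

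Against the controls of the same time point, the 3p strand differed most at 14-d, where the controls were highest. Control livers 13, 14 and 15 had 175, 77.4 and 115 of miR-455-3p, and in the middle dose group the levels were 45.4, 39.7 and 35.8, all below the lowest control. This was a log2 fold change of -1.60 (SE 0.26, adjusted p = 0.0017), or 3.03-fold lower. The high dose livers had 56.8, 51.1 and 54.2, also clear of the controls, with a log2 fold change of -1.18 (SE 0.28) that kept an adjusted p of 0.078. At low dose the values were 48.2, 47.4 and 81.7, the last of them above control rat 14, and the log2 fold change was -1.05 (SE 0.30, adjusted p = 0.017). The 5p strand in the same livers was 79.8, 48.1 and 62.9 in controls, 71.0, 80.2 and 81.0 in the low, 56.8, 57.4 and 58.8 in the middle and 60.1, 76.1 and 76.1 in the high dose group. Against the controls of all 4 time points pooled, the 14-d log2 fold changes of miR-455-3p shrank to -0.60 at low dose and -0.72 at high dose, neither of them called, and to -1.15 at middle dose, while those at 7-d became -1.19, -1.20 and -1.02 for low, middle and high dose, all called. The 5p values of treated livers lay among or around those of the 14-d controls.

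At 28-d the doses parted. miR-455-3p was 42, 70.6 and 40.9 in the low dose group and 118, 103 and 127 in the high dose group, against 63.2, 159 and 81.4 in controls 16, 17 and 18. The low dose was called lower than the controls by the unadjusted rule only (log2 fold change -0.98, SE 0.39, edgeR unadjusted p = 0.034, adjusted p = 0.28). Its second liver, at 70.6, lay inside the control range. The high dose difference of 0.20 (SE 0.30, 95% interval -0.47 to 0.86) did not pass. The middle dose livers had 46.3, 98 and 41.3, and their change of -0.71 (SE 0.38) did not pass either. The difference between the high and the low dose was tested directly, in a fit of all 47 libraries, and was 1.18 on the log2 scale (SE 0.34, adjusted p = 0.028), where 8.31% of miRNAs were higher in that contrast. It was the 1 of 21 differences between doses, control time points and treatment effects at 28-d and 7-d that passed for miR-455-3p, and for miR-455-5p 0 of 21 passed in edgeR, with 0 at an unadjusted p below 0.05. Without control rat 17 the low dose change was -0.50 and no longer called, and the high dose change was 0.68 and called as higher. The low dose call also ended without low dose rat 28 (-0.86) or 30 (-0.85), and with TMM (-0.88), DESeq2 size factors (-0.88) or library size alone (-0.85), and without control rat 16 or middle dose rat 38 the middle dose change passed at -0.96 and -1.21, as it did with no filter (-0.85), the DESeq2 Wald test (-0.79) and a single fit (-0.71). The difference between the doses missed an adjusted p of 0.05 without rat 28 (1.06), 30 (1.04), 19 (1.17) or 21 (1.11), and with TMM, DESeq2 size factors or no filter (adjusted p = 0.077, 0.070 and 0.083).

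At 3-d, with 2 controls (rats 2 and 3, 71.6 and 53.1), miR-455-3p measured 74.0, 52.2 and 51.2 in low dose, 84.7, 46.2 and 102 in middle dose and 94.9, 80.2 and 73.7 in high dose livers. The high dose livers were all above both controls, as were 20.6% of miRNAs in that comparison, but the log2 fold change of 0.41 (SE 0.27) did not pass. The changes at low and middle dose were -0.08 (SE 0.22) and 0.31 (SE 0.39), and the low dose value changed sign without control rat 2 (0.15). With control 3-d replicate 1 in the comparison (989 normalized RPM) the control mean was 371 ± 535 (SD, n = 3), and the log2 fold changes became -2.63 (SE 1.15), -2.24 and -2.14 for low, middle and high dose. None of the 3 then passed a p of 0.05. The 3-d fold changes of miR-455-3p, the direction at middle and high dose included, therefore rested on this library.

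Over the 12 conditions, edgeR called miR-455-3p lower in 6 at an unadjusted p below 0.05 and a fold above 1.5, higher in 0, and lower in 3 with adjusted p-values. The share of all 301 tested miRNAs called lower by the unadjusted rule was 10.6% (low), 3.99% (middle) and 3.32% (high) at 7-d, 9.63%, 5.32% and 3.65% at 14-d, 8.64%, 12% and 2.33% at 28-d and 10.3%, 0% and 1.66% at 3-d. The share called higher was 18.3%, 12% and 17.9% at 7-d, 22.9%, 12% and 5.65% at 14-d, 3.65%, 20.9% and 13% at 28-d and 13.3%, 1.99% and 7.31% at 3-d, in the same order of doses. With adjusted p-values the lower share was 9.63%, 3.65% and 1.33% at 7-d, 9.3%, 4.65% and 0.332% at 14-d, 0%, 11% and 1.33% at 28-d and 7.64%, 0% and 0% at 3-d. The 3 adjusted calls of miR-455-3p, middle dose at 7-d and low and middle dose at 14-d, stood against shares of 3.65%, 9.3% and 4.65%. In the 3 conditions in which no treated liver reached the control range from below, middle dose at 7-d and 14-d and high dose at 14-d, the share of miRNAs that did the same was 21.9%, 17.6% and 14%. In a fit of 47 libraries averaged over the 4 time points, miR-455-3p was lower than in controls at low dose (log2 difference -0.70, SE 0.18, adjusted p = 0.0011) and at middle dose (-0.67, SE 0.18, adjusted p = 0.0028), with 22.3% and 17.3% of miRNAs lower. The high dose average of -0.27 (SE 0.17, 95% interval -0.62 to 0.09, adjusted p = 0.24) did not pass.

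miR-455-5p was called by edgeR in 0 of the 12 conditions, and also in 0 by DESeq2 and by the exact test of edgeR, while 1 condition had an unadjusted p below 0.05. Its log2 fold changes were between -0.49 (low dose at 7-d) and 0.28 (low dose at 14-d). At 7-d the low dose livers had 45.3, 60.7 and 49.5 against 74.0, 87.0 and 58.2 in controls, with an unadjusted p of 0.023 and a fold of 1.41 that stayed below the threshold. It would have been called without control rat 6 (-0.63) or low dose rat 47 (-0.62). The average over time points was 0.03 (SE 0.12), -0.04 (SE 0.11) and -0.03 (SE 0.12) for the low, middle and high doses, with 95% intervals of -0.20 to 0.26, -0.27 to 0.20 and -0.26 to 0.21. Average changes of the size seen for the 3p strand at low and middle dose lie outside these intervals.

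**Figure D3:**
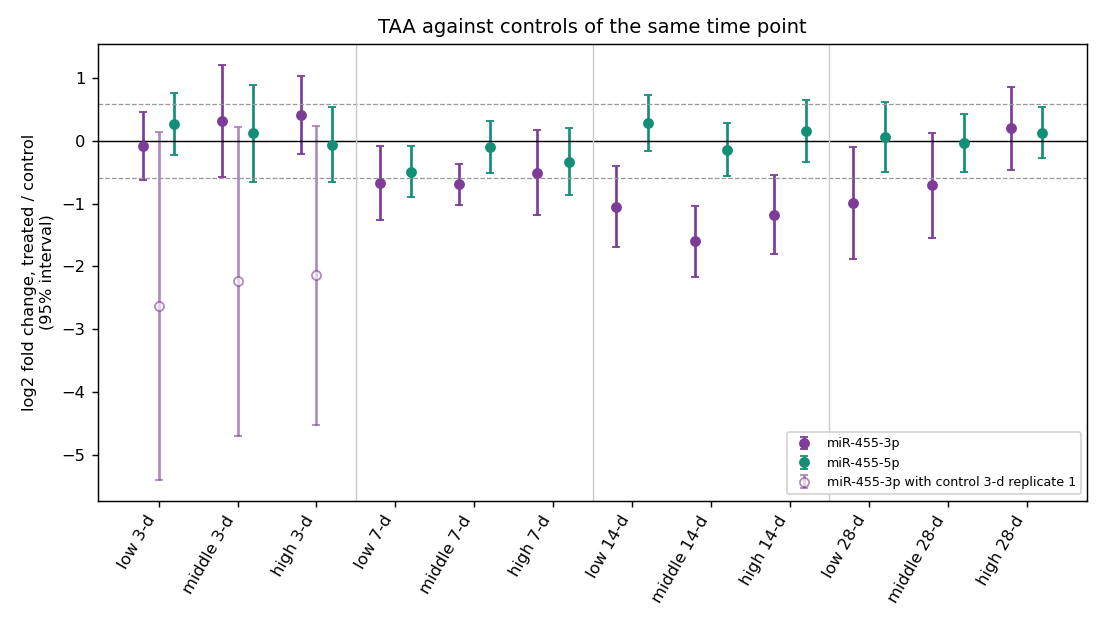
Log2 fold change against the controls of the same time point (y axis) with 95% intervals, for each dose and time point (x axis) and strand, with dashed lines at a fold of 1.5. The 3p strand reaches -1.60 at 14-d while 5p stays within -0.49 and 0.28, and the open circles show the 3-d values of 3p with control 3-d replicate 1, down to -2.63.

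The ratio of the strands within a library compares them without any scaling between libraries. More 3p than 5p reads were counted in 16 of 47 libraries and fewer in 31, and the exact binomial 95% interval of the 3p share lay above 50% in 14, below in 26 and across it in 7. These intervals cover counting error only. The share ran from 32.4% to 69.6%. In controls 3p was the lesser strand in all 5 livers at 3-d and 7-d and the greater in 5 of 6 at 14-d and 28-d. Among treated livers 3p was the greater strand in 2 of 12 given the low, 2 of 12 given the middle and 7 of 12 given the high dose.

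Control livers at 14-d had 68.6%, 61.7% and 64.6% of the miR-455 reads on the 3p strand. In treated livers of that time point the share was 40.4%, 37.2% and 50.2% for the low dose, 44.4%, 40.9% and 37.8% for the middle dose and 48.6%, 40.2% and 41.6% for the high dose, so that none reached a control. Such a gap, with every treated ratio below every control, was seen for 32.3%, 25.3% and 10.1% of the 99 precursors. The log2 ratio of 3p to 5p differed from the controls by -1.33 (SE 0.32, limma adjusted p = 0.0020) for the low, -1.42 (adjusted p = 0.0025) for the middle and -1.27 (adjusted p = 0.029) for the high dose. Of the 99 precursors, 21.2%, 10.1% and 2.02% had a lower ratio in these comparisons. By its p, mir-455 ranked 9 of 99 at low dose and 3 of 99 at middle dose. At high dose mir-455 had the smallest p of the 99, although that call ended without control rat 13 (-1.16) or 15 (-1.29) or high dose rat 8 (-1.18) or 9 (-1.22), and when every precursor with reads on both strands was tested (adjusted p = 0.11). With the controls of all time points pooled the differences were -0.73 (adjusted p = 0.040), -0.82 (0.052) and -0.68 (0.94) for low, middle and high dose, so that only the low dose call remained.

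At 28-d the controls had 47.7%, 69.6% and 61.6% on the 3p strand, the low dose livers 38.4%, 58.6% and 33.7%, and the high dose livers 62.3%, 62.8% and 62.9%. The 3 high dose livers were nearly identical in their share and lay inside the control range. The low dose ratio was lower than in controls by a log2 difference of -0.97 (adjusted p = 0.049, with 7.07% of precursors lower), which was not called in 24 of the 47 repeats that left out 1 library, and was -0.66 without control rat 17, -0.92 without control rat 18, -0.82 without low dose rat 28 and -0.67 without low dose rat 30. That call was also lost with every precursor with reads on both strands tested (adjusted p = 0.12) and with pooled controls (-0.68, adjusted p = 0.14). The high dose difference was 0.17 (adjusted p = 0.85). The middle dose livers had 40.2%, 58.2% and 47.3%, a difference of -0.67 that did not pass (adjusted p = 0.14) but did without control rat 16 (-1.02).

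None of the differences at 3-d or 7-d passed against the controls of the same time point. At 7-d the controls had 47%, 45.2% and 46.8%, with the middle dose livers at 38.9%, 38.6% and 32.4%, all below them as for 19.2% of precursors, and a log2 difference of -0.58 (adjusted p = 0.30), which passed with pooled controls (-1.09, adjusted p = 0.012). The corresponding differences at 3-d were -0.33, 0.18 and 0.49 for low, middle and high dose. The low dose difference passed with control 3-d replicate 1 kept (-1.82, adjusted p = 0.013) and with pooled controls (-0.89, adjusted p = 0.013). The high dose livers at 3-d had 52.8%, 56.1% and 52.6%, above both controls at 47.9% and 42.9%, as 15.2% of precursors were.

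**Figure D4:**
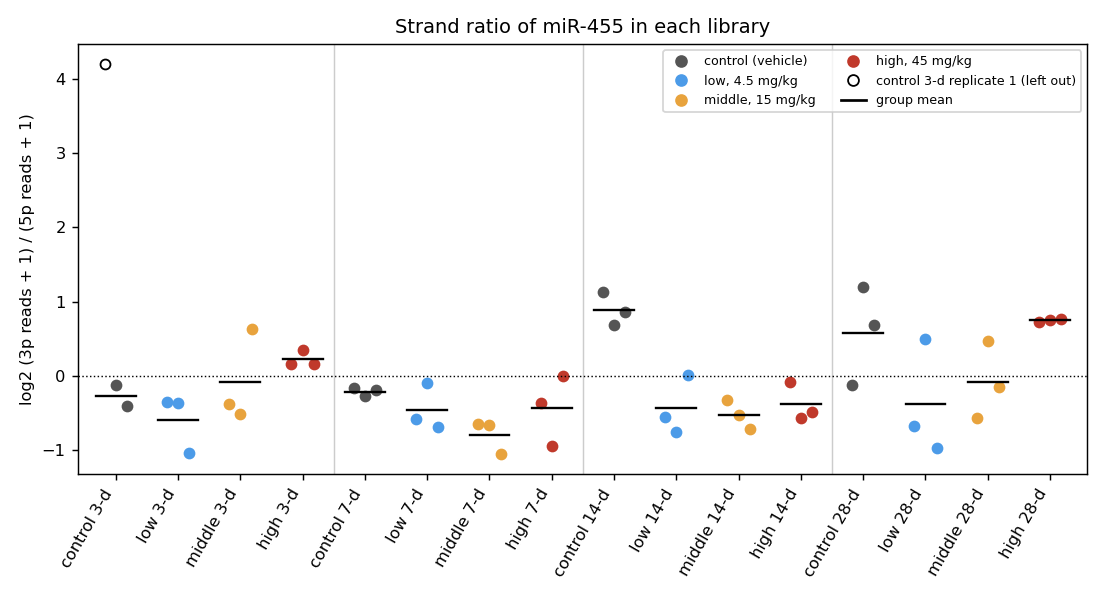
Log2 ratio of miR-455-3p to miR-455-5p reads, each with 1 read added (y axis), in each of 48 livers by group (x axis), with lines at group means computed without control 3-d replicate 1 (open circle, 4.21) and a dotted line at equal reads. Controls sit below equal at 7-d and above it at 14-d, and all 9 treated livers at 14-d sit below the 3 controls.

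Averaged over the 4 time points, the log2 ratio was lower than in controls at low dose (difference -0.72, SE 0.17, adjusted p = 0.00036) and at middle dose (-0.62, SE 0.17, adjusted p = 0.0042), with 36.4% and 13.1% of precursors lower. In these averages mir-455 ranked 27 of 99 by its limma p at low dose and 12 of 99 at middle dose. The high dose difference of -0.21 (adjusted p = 0.38, with 10.1% lower) did not pass. An exact two-sided permutation test over the 80000 arrangements of rats within time points gave p = 0.0027, 0.0095 and 0.30 (0.0080, 0.014 and 0.30 after adjustment over the 3 doses). The control livers moved as well. From 7-d to 14-d the control ratio rose by 1.11 (SE 0.32, adjusted p = 0.049, with 3.03% of precursors higher), a call that was lost in 34 of the 47 repeats leaving out 1 library. The 3p level of the controls was 0.96 higher at 14-d than at 7-d (adjusted p = 0.13) and 0.69 higher at 28-d (adjusted p = 0.18), neither of which passed where 0.664% and 6.98% of miRNAs were higher, and the 5p level was 0.20 and 0.21 lower (-0.20 and -0.21). The treatment differences at 14-d and 28-d were thus taken from control groups whose 3p levels were the highest of the 4 control times.

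Over the 47 libraries the normalized levels of the strands had Pearson's r = 0.33 (permutation p = 0.023) and Spearman's rho = 0.37 (permutation p = 0.011), and r was 0.32 without the 2 libraries farthest from the 3p median. Within groups r was 0.39. This was the 1 relation tested, and the points share groups of 3 rats. For comparison, miR-455-5p was 60th of 300 miRNAs by its r to miR-455-3p. The strand ratio had r = 0.88 with the 3p level and r = -0.15 with the 5p level. The ratio is made from both levels and 3p varied more, so these values were largely fixed in advance.

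The miRNAs whose levels ran closest to miR-455-3p over the 47 libraries were miR-122-3p (r = 0.77), from the hairpin of the hepatocyte miRNA miR-122, let-7b-3p (r = 0.67) and miR-139-5p (r = 0.63). Those running most opposite were miR-3068-3p (r = -0.52), miR-34a-5p (r = -0.47), a p53-induced miRNA, and miR-3473 (r = -0.45). For miR-455-5p the closest were miR-221-3p (r = 0.52), let-7i-3p (r = 0.47) and miR-511-3p (r = 0.45), and the most opposite were miR-421-3p (r = -0.29), miR-423-3p (r = -0.24) and miR-151-5p (r = -0.23). These values are descriptions. The 2 lists held different miRNAs, and the 2 closest to miR-455-3p with a sequence shown here have other seeds, in capitals.

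rno-let-7b-3p: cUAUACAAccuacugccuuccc

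rno-miR-139-5p: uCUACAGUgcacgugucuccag

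Other miRNAs with which miR-455 is commonly named were taken from fixed lists. Per condition, 0% to 12% of all 301 miRNAs were called lower and 1.99% to 22.9% higher, and conditions of a time point share controls. Of the cartilage miRNAs from the miR-140 hairpin, miR-140-5p was called in 0 of 12 conditions and miR-140-3p in 1, higher at low dose at 14-d (log2 fold change 0.62). Neither was called lower in any condition. Among brown adipose miRNAs, 7 of 8 could be tested. miR-365-3p was lower in 6 conditions and miR-133a-3p, a muscle miRNA, in 4, while miR-193b-3p was higher in 3 and miR-155-5p, an inflammatory miRNA, in 4. The level of miR-133a-3p was near the filter of 5 RPM, with a control mean of 7.30 and a lowest value of 0.42 normalized RPM. miR-30b-5p and miR-30c-5p were lower in 1 and 2. miR-34a-5p was higher in all 12, with log2 fold changes from 1.40 to 4.88.

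Of 12 miRNAs known to act on TGF-β, SMAD or collagen transcripts, all were tested. Their calls stand beside the same shares of all miRNAs per condition. miR-29a-3p, which represses collagens, was lower in 5 conditions and miR-29c-3p in 2, whereas miR-29b-3p was higher in 2. miR-145-5p, of smooth muscle and stellate cells, was lower in 4. miR-21-5p, which is raised in many injured tissues, was higher in 2 and lower in 1, miR-18a-5p was higher in 3, and miR-101a-3p and miR-101b-3p were higher in 2 and 1. miR-20a-5p, miR-146a-5p, miR-130a-3p and miR-30a-5p were called in 0. At 14-d, where miR-455-3p was called lower at all doses, the list had 2 lower calls at low, 0 at middle and 3 at high dose and 0 higher calls, with median log2 fold changes of 0.03, -0.14 and -0.15 against 0.11, 0.01 and -0.04 over all 301 miRNAs. Of all 301 miRNAs, 9.63%, 5.32% and 3.65% were called lower there and 22.9%, 12% and 5.65% higher, in the same order of doses.

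In whole liver, fewer cells of a type and less of a miRNA per cell cannot be told apart. Every marker miRNA of hepatocytes, stellate or smooth muscle cells, leukocytes, red blood cells, bile duct epithelium and endothelium was detected in every group. Beside the 28-d result, the summed endothelial markers (2 of 2) were 28159 to 32448 normalized RPM in controls and 28157 to 29332 at high dose, but 21631 to 22805 at low dose and 20839 to 27210 at middle dose. Red blood cell markers (3 of 3) were lower in middle dose livers than in controls at 7-d (1636 to 1896 against 3772 to 6168) and at 14-d (2048 to 3098 against 3995 to 5281), but not at low dose at 14-d (5106 to 5890). At high dose at 7-d, where miR-455-3p was not called, the red blood cell sum was also below the controls (774 to 3398). At 7-d stellate or smooth muscle markers (6 of 6) were 30873 to 39055 at middle dose against 40967 to 46284 in controls. The same sum at 14-d was 30948 to 35013 at middle dose and 49500 to 57839 at low dose, against 44061 to 45002 in controls. Most of this sum was miR-143-3p, so it does not show 6 markers moving together. At the median of the other controls, control 3-d replicate 1 would hold 11945 reads of miR-143-3p and 94.3 of miR-145-5p. At low dose at 14-d, where the sum was higher, its member miR-145-5p was called lower. Leukocyte markers (4 of 4) were 2543 to 2743 at low dose at 14-d against 3228 to 4321 in controls. Bile duct epithelium markers (5 of 5) were 395 to 492 at low dose at 7-d against 1007 to 1086 in controls. They were 804 to 1369 at middle dose and 403 to 845 at high dose at 7-d, the latter without a miR-455-3p call. At 3-d, also without a call, they were 738 to 1112, 922 to 1185 and 494 to 733 for low, middle and high dose. The 3-d controls had 1249 to 1406. The summed hepatocyte markers (5 of 5) were 404159 to 454919 at low dose at 14-d against 292439 to 340847 in controls, and 292040 to 349197 at middle dose. At low dose at 3-d, without a miR-455-3p call, they were 355011 to 372644 against 279421 to 292346 in controls. Shifts in these sums were therefore not limited to conditions in which miR-455-3p was called. The part of these cell types in the miR-455-3p result was not tested.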

How the data were processed

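Total RNA from about 15 mg of liver was sequenced on an Illumina HiSeq-2000 after TruSeq small RNA library preparation. The authors deposited raw read counts for each mature miRNA and precursor, made by trimming adaptors, keeping reads of 18 to 25 bases and quantifying against miRBase release 21 with miRDeep2. They applied no normalization to these counts and pooled no replicates. The submitters' processing notes also name rn5 and FastQC. The table has 847 rows, one for each mature miRNA with a precursor. Where a mature miRNA has several precursors, the one with the most reads was used, and miR-455 has 1.

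A level of 5 RPM in 3 or more of the 48 libraries was required for testing, which 301 miRNAs met. Treated livers were set against same-time controls with the quasi-likelihood F-test of edgeR 4.0.16 (R 4.3.3) after upper quartile normalization, in separate fits of 6 libraries, or 5 at 3-d, where control 3-d replicate 1, with fewer than 1000000 reads, was left out. A differentially expressed miRNA (DEM), written as called, had, as in the study's methods, a fold change above 1.5 and a p-value, not adjusted, below 0.05. Benjamini-Hochberg adjusted p-values over the miRNAs tested stand beside it. Averages over time points and differences between groups came from 1 fit of 47 libraries in 16 groups, with a call at an adjusted p-value below 0.05. The log2 ratio of (3p reads + 1) to (5p reads + 1) was tested with limma 3.58.1 over 99 precursors with both strands past the filter, and its average per dose also with an exact permutation test. Standard errors of edgeR log2 fold changes were computed from the F statistic. Poisson and exact binomial intervals are 95% intervals of counting error.

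The miRNAs named besides miR-455 are the 3 with the highest and the 3 with the lowest Pearson's r to each strand, on log2 (normalized RPM + 1), and the members of the 3 lists (cartilage, brown adipose tissue, TGF-β, SMAD or collagen). Members and lists were chosen with earlier results of these data known. Alternatives were TMM, DESeq2 size factors, library size alone, no filter, DESeq2 1.42.0 with its Wald test, the exact test of edgeR, 5 RPM in every library, pooling of all controls, adjusted p-values, a single fit, control 3-d replicate 1 kept, the 3-d time point left out of the averages and each library left out. For the ratio they were a pseudocount of 0.5 reads, every precursor with reads on both strands, control 3-d replicate 1 kept, the exact permutation test and each library left out, with all controls pooled added after seeing the data. The tests were checked on simulated data. Sequences were matched by name in RefSeq tables, which gave a mature sequence for 1 of the 2 members, miR-455-3p.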

Additional observations from a re-analysis of the deposited data

Results flagged for a closer look

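miR-455-3p at 28-d was higher in the high than in the low dose group by 1.18 on the log2 scale (SE 0.34, edgeR adjusted p = 0.028, with 8.31% of miRNAs higher), which is a tested difference between doses given for the same time. The adjusted p over the alternatives other than leaving out a library ran up to 0.23.

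miR-455-3p in control 3-d replicate 1, the library left out of the comparisons, was 1197 RPM, above the 53.6 to 162 RPM of the other 11 controls.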

How the results depend on the processing

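The lower calls of miR-455-3p numbered 3 with adjusted p-values, 4 with library size alone, 8 with no filter or the DESeq2 Wald test, 5 or 6 in the other alternatives and 5 to 7 when 1 library was left out, with 0 to 1 higher calls. Those of miR-455-5p numbered 1 with library size alone and 0 to 1 when 1 library was left out. Of 21 differences for miR-455-3p, 0 passed with TMM, DESeq2 size factors or no filter, 2 with control 3-d replicate 1 kept, and 0 to 2 when 1 library was left out. For miR-455-5p 1 passed with library size alone.

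The averages of miR-455-3p kept their direction in all alternatives run. The low and middle dose calls were also kept, and the high dose average passed only with control 3-d replicate 1 kept (-0.89, adjusted p = 0.016). The averages of miR-455-5p lay near 0 and changed sign at low dose (-0.0067 with DESeq2 size factors, -0.017 with library size alone, -0.056 with no filter, -0.049 with 3-d left out), at middle dose (0.12 with library size alone) and at high dose (0.050 with library size alone, 0.0018 with control 3-d replicate 1 kept), and ran from -0.012 to 0.079, -0.11 to 0.011 and -0.069 to 0.021 when 1 library was left out. Against upper quartile scaling, the median log2 fold change of all miRNAs shifted by -0.17 to 0.28 with library size alone, -0.16 to 0.11 with TMM and -0.13 to 0.12 with DESeq2 size factors. The cause of the other changes was not tested.

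Fold changes of miR-455-3p that changed sign were middle dose at 3-d (-0.21 with all controls pooled, -2.24 with control 3-d replicate 1 kept), high dose at 3-d (-0.11 and -2.14) and high dose at 28-d (-0.0094 with 5 RPM in every library). The range when 1 library was left out was -0.28 to 0.15 for low dose at 3-d and -0.053 to 0.68 for high dose at 28-d. Of the 6 calls, middle dose at 14-d was kept in all alternatives run. For the strand ratio, middle dose at 3-d was -1.31 with control 3-d replicate 1 kept and -0.38 with all controls pooled (-0.18 to 0.39 when 1 library was left out), high dose at 3-d was -1.0 and -0.072, and high dose at 28-d ran from -0.19 to 0.47. With control 3-d replicate 1 kept, the ratio calls at 14-d and 28-d were lost while the differences themselves were unchanged (adjusted p = 0.098 at low, 0.14 at middle and 0.87 at high dose at 14-d, 0.40 at low dose at 28-d).

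No paired analysis was possible because the running numbers 1 to 48 are not shared between groups. How far read depth and the spread between rats each set the width of the intervals was not tested.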

Other observations

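In control 3-d replicate 1 the precursors whose strand ratio departed further than that of mir-455 were let-7d (4.93), mir-151 (4.8) and mir-532 (4.59), each towards the 3p strand. In that library 95.1% of the miR-455 reads were on the 3p strand.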
